A study of Mus musculus with 6 samples.

Results

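The genes described here encode the Id proteins and the E proteins of mouse haematopoietic stem cells (HSCs), measured in obese mice and in lean littermates. They were chosen by symbol as Id1, Id2, Id3, Tcf3, Tcf4 and Tcf12, which gave 6 of the 23955 symbols in the deposited table. All 6 passed the filter of a mean of at least 1 TPM (a length-corrected transcript abundance that sums to 1000000 in each library), which kept 11931 symbols. The obese group was db/db, mice of the C57BL/6 strain that carry a mutant leptin receptor and are labelled as receptor null. The other group was WT littermates of the same strain. All mice were 4 months old. From each, lineage-negative Sca-1+ c-Kit+ bone marrow cells with CD150 and without CD48 were sorted, 20000 cells per library. Each of 3 independent experiments gave 1 db/db and 1 WT library, so n = 3 in each group, and the same replicate number marks the same experiment. The mutation is in the germline, so cells outside the marrow carry it too. The labels name a mouse for each library in one field and mice in others, so p-values measure the spread between libraries, which may be partly technical.

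E proteins are basic helix-loop-helix transcription factors that bind the E box, a short DNA motif, as dimers with each other or with tissue-restricted partners such as Tal1. Id proteins have the helix-loop-helix but no basic region, so a dimer of an Id protein with an E protein does not bind DNA. The balance between both families is known to set lymphoid commitment, and in HSCs it bears on self-renewal and quiescence. Transcript levels do not show protein levels or dimers.

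The E box is spelled CANNTG, where N is any base, and it reads as an E box on both strands. Promoter windows of 250 bases before to 50 bases after a transcription start were taken from RefSeq on GRCm38.p6, a later build than the mm9 used for the TPM values, and 4 of the 6 members had an entry. The windows of Id2 at chr12:25096043-25096342 (minus strand), Id3 at chr4:136143572-136143871 (plus strand) and Tcf3 at chr10:80433586-80433885 (minus strand) are shown, because Id2 and Id3 are inhibitors that differed in their pattern over the libraries and Tcf3 was the most abundant member. Capitals mark each E box and each GGCGCC, a palindrome found in a BMP-responsive element of the Id1 gene, and the motifs did not overlap each other.
Id2: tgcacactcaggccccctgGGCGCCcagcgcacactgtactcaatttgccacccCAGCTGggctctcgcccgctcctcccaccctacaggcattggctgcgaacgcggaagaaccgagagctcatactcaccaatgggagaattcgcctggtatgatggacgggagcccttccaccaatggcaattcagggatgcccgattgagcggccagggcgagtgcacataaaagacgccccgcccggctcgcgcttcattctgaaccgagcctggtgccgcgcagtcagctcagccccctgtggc
Id3: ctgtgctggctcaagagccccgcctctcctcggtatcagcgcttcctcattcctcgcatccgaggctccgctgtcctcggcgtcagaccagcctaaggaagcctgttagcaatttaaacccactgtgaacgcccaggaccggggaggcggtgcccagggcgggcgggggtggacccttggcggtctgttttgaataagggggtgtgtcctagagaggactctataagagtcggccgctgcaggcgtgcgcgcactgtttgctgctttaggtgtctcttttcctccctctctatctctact
Tcf3: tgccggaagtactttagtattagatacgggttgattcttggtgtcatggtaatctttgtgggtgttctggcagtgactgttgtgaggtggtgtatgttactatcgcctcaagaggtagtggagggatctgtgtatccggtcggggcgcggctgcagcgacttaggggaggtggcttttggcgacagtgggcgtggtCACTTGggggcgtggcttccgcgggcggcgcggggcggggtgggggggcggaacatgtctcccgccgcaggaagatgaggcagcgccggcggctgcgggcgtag
The Id2 window held 1 E box, CAGCTG, and 1 GGCGCC. The Tcf3 window held 1 E box, CACTTG, and no GGCGCC, and the Id3 window held neither. Among 32851 mouse promoter windows of the same length, 72.3% held an E box and 11.9% held GGCGCC. These matches describe letters in the windows and no binding was measured.

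The libraries carried the genes of the sort gate. Kit stood at 224, 310 and 347 TPM in db/db, against 233, 164 and 350 TPM in WT. All 11 stem cell gate markers were measured, and 0 passed, against 0.0335% of tested genes, a share at which 0 of 11 says little. All 11 had a log2 fold change above 0, and 7 were above the median of all tested genes. Slamf1, the CD150 gene, was at 29.01, 38.9 and 24.96 TPM in db/db, against 23.99, 11.91 and 17.59 TPM in WT. These groups did not overlap, as was so for 2 of the 11 and for 7.85% of tested genes with db/db higher. Slamf1 did not pass (limma adjusted p = 0.919). Cd48, whose product the gate excludes, was at 9.1, 21.44 and 1.63 TPM in db/db, against 5.35, 4.2 and 1.09 TPM in WT. Cd48 was higher in db/db in every experiment, although the groups overlapped (limma adjusted p = 0.919). Read depth is unknown, because TPM keeps none, and each library had 13314 to 13810 symbols with a value above 0. Lepr, the mutated gene, averaged 1.997 ± 0.467 TPM in db/db and 2.69 ± 0.308 TPM in WT (SD, n = 3 each) and did not pass (limma with Benjamini-Hochberg adjustment, adjusted p = 0.939). The median log2 fold change of all tested genes was 0.18, and 0.00310 after median-of-ratios scaling, so a value of 0.18 is the level of an average gene. Markers of cell types known for high Id or E protein transcripts were mixed, with some at 0 and others well above it. The B cell genes Pax5 and Ebf1, the plasmacytoid dendritic cell gene Siglech and the lymphocyte genes Cd3e and Il2rb were listed at 0 in every library, and the endothelial gene Cdh5 was at most 3.02 TPM. Other genes of the same lists were not low, such as Cd79b of B cells at 28.8 to 59.9 TPM in db/db and 32.7 to 60.9 TPM in WT. Runx2, on the plasmacytoid dendritic cell list, was at 37.6, 64.2 and 60.7 TPM in db/db and at 32.2, 18.4 and 36.8 TPM in WT. These groups did not overlap, as was so for 7.85% of tested genes with db/db higher. Bst2 and Irf8 of the same list averaged lower in db/db, at 50.6 and 3.56 TPM against 63.3 and 4.48 TPM in WT. The median log2 fold change of the 3 tested genes of that list was -0.037. In all, 4 of 11 B cell, 3 of 11 plasmacytoid dendritic cell, 7 of 15 T, NK and innate lymphoid cell and 1 of 12 endothelial markers were at 0 in all libraries. The summed B cell markers were 30.3 to 60.8 TPM in db/db and 34.3 to 61.7 TPM in WT, and the plasmacytoid dendritic cell markers 106 to 116 TPM in db/db and 82.7 to 105 TPM in WT. The summed T, NK and innate lymphoid cell markers were 25.5 to 37.9 TPM in db/db and 24.7 to 37.0 TPM in WT. The summed endothelial markers were 184 to 204 TPM in db/db and 146 to 223 TPM in WT. Cldn5, a tight junction gene of endothelium, was at 15.6, 16.9 and 0.180 TPM in db/db and at 0, 0 and 0.170 TPM in WT. Sox18 of the same list averaged lower in db/db, at 4.94, 7.61 and 4.13 TPM against 12.35, 4.95 and 21.56 TPM in WT. Of 7 endothelial markers tested, 4 had a log2 fold change above 0. The summed erythroid markers were 2771, 1335 and 572 TPM in db/db and 253, 278 and 141 TPM in WT, without overlap. The globin genes Hbb-b2 and Hbb-bt had the same values in every library, so the sum counts those values under both symbols. Each was at 1348, 513 and 256 TPM in db/db and at 89.3, 79.0 and 55.1 TPM in WT. Of the 8 tested erythroid markers, 3 were without overlap, namely Hbb-b2, Hbb-bt and Klf1, and the other tested ones overlapped. The part of all these cell types in the members' values was not tested.

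Tcf3 and Tcf12 had higher mean levels than the 3 Id genes in both genotypes, whereas Tcf4 averaged above Id1 in db/db and below it in WT. In db/db HSCs the order of mean levels was Tcf3, Tcf12, Tcf4, Id1, Id3 and Id2, and in WT HSCs it was Tcf3, Tcf12, Id1, Tcf4, Id2 and Id3. Tcf3 lay at the 83.7th percentile of tested genes in db/db and at the 80.5th in WT, whereas Id2 lay at the 18.6th and 29.7th. Tcf3 was the highest of the 6 in each of the 6 libraries. Its values stood clear of those of Tcf12 in db/db but overlapped them in WT, and Tcf12 stood clear of Tcf4 in WT but overlapped it in db/db. In WT every Tcf4 value was also above every Id2 value. The other neighbours below Tcf12 overlapped in both orders. The fourth Id gene, Id4, was listed at 0 in all 6 libraries.

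The comparison of db/db with WT asked whether these transcripts differ between obese mice with the mutant receptor and their littermates. Obesity and the mutation cannot be told apart, because all db/db mice had both. The db/db library exceeded its WT partner in every experiment for Tcf3 (1 of 6 members, against 22.7% of tested genes) and lay below it in every experiment for Id1 (1 of 6, against 7.55%). No member passed in limma after Benjamini-Hochberg adjustment over all genes (0 of 6, against 0.0335% of tested genes, 4 in all), and at an unadjusted p under 0.05 the count was also 0 of 6, against 5.35% of tested genes. Adding the experiment as a block left the count at 0 of 6, against 0.0503% of tested genes.

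Tcf3, also called E2A, encodes E12 and E47 by alternative splicing and is needed for B lymphocyte development. It was at 67.8, 53.1 and 66.3 TPM in db/db libraries 1, 2 and 3, against 48.6, 40.1 and 50.3 TPM in the WT libraries of the same experiments. All 3 db/db libraries were above all 3 WT libraries. The means were 62.4 ± 8.07 TPM in db/db and 46.3 ± 5.49 TPM in WT (SD, n = 3 each), and limma put the log2 fold change at 0.42 (SE 0.29, 95% interval -0.19 to 1.02, limma adjusted p = 0.920). The differences within experiments 1, 2 and 3 were 0.47, 0.40 and 0.39 on the log2 scale, the narrowest range among the 6 members. An exact permutation test (two-sided) yielded p = 0.1, which is the lowest value that 3 against 3 libraries allow. Groups did not overlap, with db/db higher, for 1 of the 6 members and for 7.85% of tested genes, and with db/db lower for 0 of 6 and for 2.32%. The symbol names E2A here and not the T cell factor once called Tcf3, since that gene stands apart as Tcf7l1 at 5.91 ± 3.65 TPM in db/db and 2.74 ± 0.721 TPM in WT. A TPM per gene does not separate E12 from E47.

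The separation of Tcf3 depended on scaling. After median-of-ratios scaling it was 75.0, 47.5 and 54.6 in db/db libraries and 53.9, 49.8 and 44.8 in WT libraries, so the groups overlapped, and in experiment 2 the db/db library was the lower one. The log2 fold change was then 0.23 (SE 0.24). No member kept its groups apart after that scaling, where 5.67% of tested genes were higher and 4.75% lower without overlap.

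**Figure D1:**
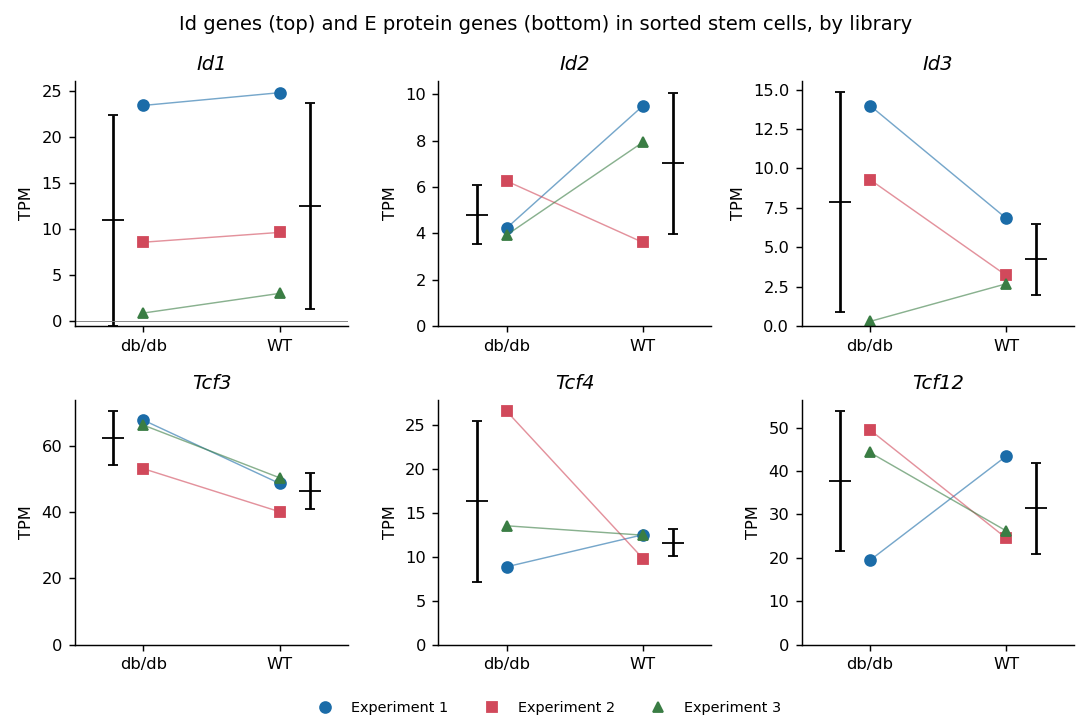
TPM (linear axis) of each member in the db/db and WT libraries, with lines joining libraries of 1 experiment and black bars giving the mean ± SD (n = 3). The 3 Tcf3 lines all lie higher on the db/db side, whereas Id1 is at 23.5 and 24.9 TPM in experiment 1 and at most 3.02 TPM in experiment 3 in both genotypes.

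Tcf12 encodes HEB, an E protein known for its part in T cell development. It was at 19.4, 49.5 and 44.3 TPM in db/db and at 43.5, 24.5 and 26.2 TPM in WT libraries 1, 2 and 3. The db/db library was the lower one in experiment 1 and the higher one in experiments 2 and 3. The means of 37.7 ± 16.1 TPM in db/db and 31.4 ± 10.5 TPM in WT (SD, n = 3 each) gave a log2 fold change of 0.20 (SE 0.37, 95% interval -0.58 to 0.98, limma adjusted p = 0.945), close to the median gene. Without db/db replicate 2 it was -0.044.

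Tcf4 encodes E2-2, the E protein that plasmacytoid dendritic cells depend on. It was at 8.85, 26.6 and 13.5 TPM in db/db and at 12.5, 9.79 and 12.5 TPM in WT libraries. The WT libraries lay close together, and db/db replicate 2 stood above the other 5. The means were 16.3 ± 9.18 TPM in db/db and 11.6 ± 1.55 TPM in WT (SD, n = 3 each), with a log2 fold change of 0.34 (SE 0.42, 95% interval -0.54 to 1.21, limma adjusted p = 0.926). Without db/db replicate 2 it was -0.065, so the sign rested on that library.

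The make-up of the E protein pool differed between libraries of a genotype. Tcf3 made up 70.6%, 41.1% and 53.4% of the summed E protein TPM in db/db libraries and 46.5%, 53.9% and 56.6% in WT libraries. Tcf12 made up 20.2%, 38.3% and 35.7% in db/db and 41.6%, 33.0% and 29.4% in WT. In db/db replicate 1 the share of Tcf3 was thus the highest and that of Tcf12 the lowest of all 6 libraries. These shares are taken within a library and do not depend on scaling.

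Id1 is a direct target of BMP signalling through Smad1 and Smad5, and in mice it is known to act in HSC self-renewal. It was at 23.5, 8.59 and 0.880 TPM in db/db libraries 1, 2 and 3, against 24.9, 9.66 and 3.02 TPM in WT. Both genotypes were high in experiment 1, intermediate in experiment 2 and low in experiment 3. The means of 10.98 ± 11.5 TPM in db/db and 12.5 ± 11.2 TPM in WT (SD, n = 3 each) hid this order. The log2 fold change was -0.44 (SE 0.71, 95% interval -1.91 to 1.03, limma adjusted p = 0.932), and the differences within experiments were -0.08, -0.15 and -1.10. With the experiment as a block the SE was 0.42 and the gene still did not pass (limma adjusted p = 0.811). Over all 19 alternatives, with and without a block, the limma adjusted p of Id1 ran from 0.565 to 1. Leaving out db/db replicate 3 moved the fold change to 0.57, and leaving out WT replicate 1 to 0.22, so its sign in the unblocked comparison rested on which experiments stood on each side.

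The spread of Id1 lay between experiments. Of its sum of squares on the log2(TPM + 1) scale, 94.4% lay between experiments and 2.69% between genotypes, and 3.99% of tested genes had at least 90% between experiments. The means over both genotypes were 24.2, 9.13 and 1.95 TPM in experiments 1, 2 and 3. In a limma F test among experiments, made after these values were seen, Id1 did not pass (Benjamini-Hochberg adjusted p = 0.205), although its rank by unadjusted p was 6 of 11931 genes. By that test 1 gene passed, 0.00838% of those tested, and 8.67% had an unadjusted p under 0.05. Without WT replicate 3 the adjusted p of Id1 was 0.0462, and over the other 13 alternatives it ran from 0.0750 to 0.716. With pseudocounts of 0.1 and 0.5 it was 0.233 and 0.198.

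Other measures also differed between the experiments, and some of them between the genotypes. The summed TPM of 10 granulocyte markers was 3631, 1529 and 1402 in db/db libraries and 4361, 178 and 256 in WT libraries. It was highest in experiment 1 in both genotypes, and in experiments 2 and 3 the db/db library was the higher one. Of the 9 tested, 8 were higher in db/db at an unadjusted p under 0.05, against 4.1% of tested genes. Their median log2 fold change was 1.91 and 0 passed, against 0.0335% of tested genes, a share at which 0 of 9 says little. The summed macrophage and dendritic cell markers were 40.8, 18.8 and 13.4 TPM in db/db and 43.5, 1.15 and 3.74 TPM in WT. In db/db both sums fell from experiment 1 to experiment 3, as Id1 did, whereas in WT both were lowest in experiment 2, unlike Id1. The share of ribosomal RNA (Rn45s) was 8.51%, 8.04% and 6.34% in db/db and 10.4%, 10.4% and 6.46% in WT. The part of these in the level of Id1 was not tested.

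Id3 is likewise a target of BMP signalling and, in lymphocytes, of antigen receptor signalling. It was at 14.0, 9.29 and 0.290 TPM in db/db and at 6.83, 3.21 and 2.68 TPM in WT libraries. In experiments 1 and 2 the db/db library was the higher one, and in experiment 3 it was the lowest of all 6. The means were 7.86 ± 6.96 TPM in db/db and 4.24 ± 2.26 TPM in WT (SD, n = 3 each). The log2 fold change was 0.24 (SE 0.68, 95% interval -1.18 to 1.65, limma adjusted p = 0.968), with differences of 0.94, 1.29 and -1.51 within experiments. Leaving out db/db replicate 3 moved it to 1.33, and leaving out db/db replicate 1 to -0.44. The highest library exceeded the lowest by 48.2-fold for Id3 and 28.3-fold for Id1, a spread of at least 10-fold that 10.2% of tested genes shared. The other 4 members spanned 1.69-fold to 3.00-fold.

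The ratio of Id3 to Id1 within a library had no fixed value. On the log2 scale it was -0.75, 0.11 and -1.60 in db/db and -1.86, -1.59 and -0.17 in WT. The db/db value was the higher one in experiments 1 and 2 and the lower one in experiment 3. There it rests on Id3 at 0.290 and Id1 at 0.880 TPM, both under 1 TPM at an unknown depth.

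Id2 is known for its need in innate lymphoid and natural killer cells. It was at 4.23, 6.26 and 3.93 TPM in db/db and at 9.51, 3.61 and 7.94 TPM in WT libraries. The db/db library was lower in experiments 1 and 3 and higher in experiment 2. The means were 4.81 ± 1.27 TPM in db/db and 7.02 ± 3.06 TPM in WT (SD, n = 3 each), and limma put the log2 fold change at -0.40 (SE 0.48, 95% interval -1.40 to 0.60, limma adjusted p = 0.926). Its sum of squares held 10.6% between experiments, so it did not share the order of Id1. The sign of Id2 was negative under every alternative tried.

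**Figure D2:**
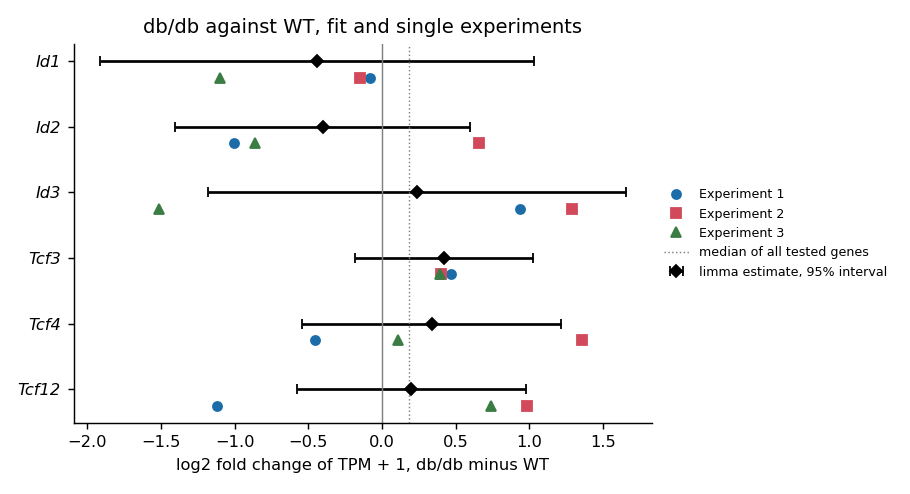
Log2 fold changes of TPM + 1 (db/db minus WT) of the 6 members, with diamonds and bars for the limma estimate and its 95% interval and coloured points for the single experiments. All 6 intervals include 0, and the single experiments lie together for Tcf3 alone, between 0.39 and 0.47.

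Summed Id transcripts stood below summed E protein transcripts in every library. The sum of Id1, Id2 and Id3 was 41.7, 24.1 and 5.10 TPM in db/db and 41.2, 16.5 and 13.6 TPM in WT libraries. The sum of Tcf3, Tcf4 and Tcf12 was 96.0, 129 and 124 TPM in db/db and 105, 74.4 and 89.0 TPM in WT. The Id sum was therefore 43.4%, 18.7% and 4.11% of the E protein sum in db/db and 39.4%, 22.2% and 15.3% in WT. The ratio was highest in experiment 1 and lowest in experiment 3 in both genotypes, and db/db lay above WT in experiment 1 and below it in experiments 2 and 3. The mean difference of the log2 ratio, db/db minus WT, was -0.67, and without db/db replicate 3 it was 0.26. The pooled SD within genotypes was 1.31, which takes in the spread between experiments and is not the SD of the paired differences. The score joins chosen genes and was given no test. The Id pool also changed in kind, since Id1 made up 56.3% and 60.3% of it in db/db and WT libraries of experiment 1, and Id2 made up 77.1% and 58.2% in experiment 3.

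**Figure D3:**
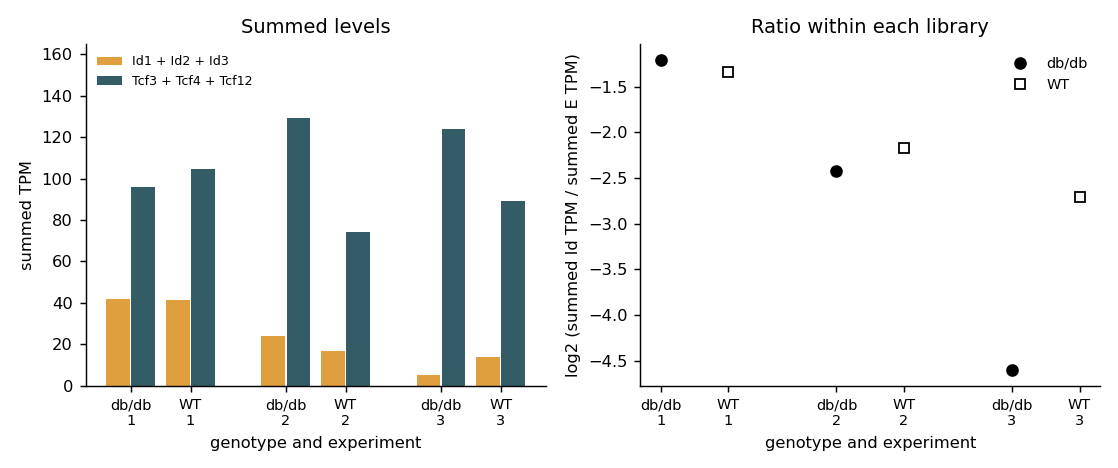
Left, summed TPM of the 3 Id genes and of the 3 E protein genes in each library, and right, the log2 ratio of the sums, by genotype and experiment. The ratio runs from -1.20 to -4.60 in db/db and from -1.34 to -2.71 in WT, and it is lowest in experiment 3.

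Genes that work with the Id and E proteins were read from lists set by name. Of 28 tissue-restricted helix-loop-helix partner genes, 19 were at 0 in all libraries and 3 were tested, namely Tal1, Lyl1 and Tcf15. Lyl1, a close relative of Tal1 that HSCs need, was the most abundant at 177 ± 20.5 TPM in db/db and 192 ± 35.2 TPM in WT. Tal1, required to form HSCs, was at 77.8 ± 12.3 and 64.1 ± 16.7 TPM in db/db and WT (SD, n = 3 each). Both exceeded Tcf3 in every library, by least for Tal1 in db/db replicate 1, at 68.7 against 67.8 TPM. None of the 3 passed, against 0.0335% of all tested genes, a share at which 0 of 3 says little. Their median log2 fold change was 0.11, against 0.18 for all genes.

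Partners in the E box complex were all measured. Of 20 such genes, including the bridging proteins Lmo2 and Ldb1, 0 passed in limma and 0 had an unadjusted p under 0.05. Among all tested genes these shares were 0.0335% and 5.35%, so counts of 0 say little about this list. The median log2 fold change was 0.26. Lmo2 was the most abundant at 827 ± 266 TPM in db/db and 715 ± 262 TPM in WT. The smallest p values were those of Ssbp4, which binds Ldb1, at 43.9 ± 7.26 and 28.6 ± 4.36 TPM in db/db and WT, of Rcor1 and of Ssbp2 (limma adjusted p = 0.919 for each). Groups did not overlap, with db/db higher, for 2 of the 20, near the 7.85% of all tested genes.

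Genes of Id and E protein turnover gave a like picture. Of 15 tested, 0 passed and 0 had an unadjusted p under 0.05, against 0.0335% and 5.35% of all tested genes, with a median of 0.30. At such shares a count of 0 says little about a list of this size. Usp1, which removes ubiquitin from Id proteins, was at 39.5 ± 10.1 TPM in db/db and 26.9 ± 4.36 TPM in WT (log2 fold change 0.52, SE 0.33, limma adjusted p = 0.919). Huwe1 was at 54.6 ± 15.2 and 37.6 ± 3.26 TPM, the chaperone-linked ligase Stub1 at 23.9 ± 6.63 and 37.2 ± 16.3 TPM, and Cops5 at 191 ± 45.6 and 148 ± 31.6 TPM in db/db and WT (SD, n = 3 each).

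Of 24 genes of BMP and TGF-beta signalling, which acts on Id genes, 18 were tested and 0 passed, against 0.0335% of all tested genes. At an unadjusted p under 0.05, 4 were higher and 0 lower in db/db, where 4.1% of all genes were higher and 1.25% lower. The list was chosen with earlier results of these data known, so this count carries no weight of its own. Smad4, the shared Smad, was at 30.8, 31.7 and 33.6 TPM in db/db and at 14.4, 14.4 and 24.8 TPM in WT, without overlap (log2 fold change 0.85, SE 0.35, limma adjusted p = 0.894). Tgfbr2, a TGF-beta receptor, was at 37.5 ± 10.4 and 21.2 ± 4.94 TPM, and Acvr1, a BMP type I receptor, at 8.13 ± 2.85 and 3.34 ± 2.09 TPM in db/db and WT (adjusted p = 0.904 and 0.910). Eng, a co-receptor, was the most abundant at 111 ± 20.2 and 112 ± 15.9 TPM. Transcripts of the ligand Bmp6 were listed at 0 in all libraries.

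Of 36 genes known as E protein targets or as markers of lymphoid priming, 18 were tested. Of these, 0 passed, against 0.0335% of all tested genes. Rag1, Il7r, Ebf1 and Pax5, genes of committed lymphoid cells, were among the 8 listed at 0 throughout. At an unadjusted p under 0.05, 5 were higher and 0 lower in db/db, where 4.1% of all tested genes were higher and 1.25% lower, and the list median was 0.53. Gfi1, Cd53 and Flt3 were known to be high from earlier results when the list was written, so this count carries no weight of its own. Flt3, a cytokine receptor of lymphoid-primed progenitors, was at 18.4, 29.6 and 21.3 TPM in db/db and at 8.62, 6.18 and 12.7 TPM in WT, without overlap (log2 fold change 1.27, SE 0.40, limma adjusted p = 0.588). Ikzf1, the lymphoid factor Ikaros, was the most abundant at 144 ± 29.1 TPM in db/db and 96.3 ± 24.4 TPM in WT (adjusted p = 0.919). The summed markers of progenitors outside the gate, which include Flt3, Mpo and Cd48, were 575, 811 and 272 TPM in db/db and 437, 381 and 234 TPM in WT, and their part in the higher values of this list was not tested. In these bulk samples, more cells of a type and more RNA per cell cannot be told apart.

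**Figure D4:**
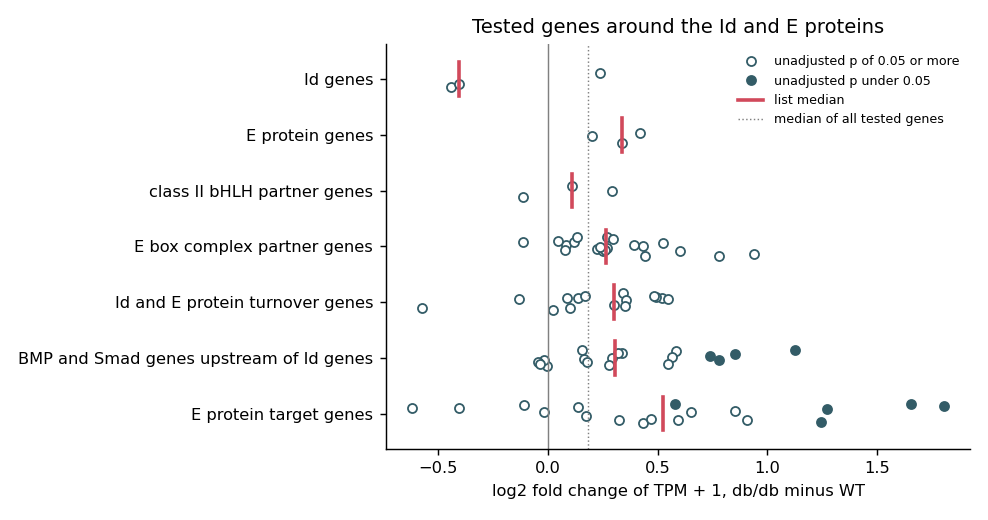
Log2 fold changes of TPM + 1 (db/db minus WT) of the tested genes of each list, with filled points for an unadjusted p under 0.05, red bars for list medians and a dotted line for the median of all tested genes, 0.18. Filled points occur for 4 BMP and Smad genes and 5 E protein target genes, all higher in db/db, and for no Id or E protein gene.

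The genes whose profile over the 6 libraries was most like that of each member were found by the root mean square difference between centred log2(TPM + 1) values. For Id1 these were Terc, the RNA component of telomerase, at 0.58 and Nme6 at 0.63, against a spread of 1.35 for Id1 itself. Terc was at 20.7, 15.7 and 4.31 TPM in db/db and at 36.9, 29.1 and 7.34 TPM in WT, low in experiment 3 in both genotypes. For Id3 they were Metrnl at 0.47 and Ltb4r1 at 0.48, against 1.16. For Id2 they were Ptges at 0.12 and Trappc2l at 0.13, against 0.45.

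Tcf3 and Tcf4 had closer neighbours, whereas those of Tcf12 were about as close as those of Id2. For Tcf3 they were Prkd2, a protein kinase gene, at 0.039 and Opa1, a mitochondrial fusion gene, at 0.044, against 0.26 for Tcf3 itself. Prkd2 was at 70.2, 56.6 and 67.6 TPM in db/db and at 47.5, 41.7 and 50.6 TPM in WT, which is nearly the level of Tcf3 in every library. For Tcf4 they were Rc3h2 at 0.065 and Mllt10 at 0.068, against 0.48. For Tcf12 they were Tpgs2 and Mctp1 at 0.11 each, against 0.49. With 6 libraries and 11931 genes, close profiles are a description only.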

How the data were processed

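Amplified RNA of the sorted HSCs went into stranded mRNA libraries with paired reads of 75 nucleotides, per the labels' protocols. The authors deposited TPM values per gene symbol, made with RSEM and Bowtie2 on mm9, per the submitters' processing notes. Versions and annotation are not given in the sources used here. RSEM divides reads shared by similar genes by an estimate. Each column summed to 1000000, so TPM is relative within a library, and no counting error or depth can be derived.

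TPM values were read through the column titles and tested as log2(TPM + 1) with limma 3.58.1 in R 4.3.3, over the 11931 genes that averaged 1 TPM or more, with no term besides genotype, a trended prior, two-sided tests and Benjamini-Hochberg adjustment at 0.05. Fold changes on this scale understate those of low genes. The fit was tested on simulated data. Single genes also got an exact permutation test over the 10 splits. Alternatives tried were other pseudocounts (0.1 and 0.5), other filters (none, or an average of 5 TPM), quantile normalization, median-of-ratios scaling, the experiment as a replicate block, no trend, a robust prior and each library left out. Leaving out whole experiments and the F test among experiments were added after the values were seen.

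The labels pair the libraries, since 1 db/db and 1 WT library carry each experiment number. Deviations from the group means correlated across genes at 0.04, 0.01 and 0.16 within experiments 1, 2 and 3 and at -0.12 to 0.08 otherwise. Members and lists were chosen with earlier results of these data known. Text names the members, Id4, Lepr, up to 3 genes of smallest p and the most abundant gene of each list, and the 2 likest genes per member. Other genes named, such as Tcf7l1, Kit and genes listed at 0, were picked after their values were seen.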

Additional observations from a re-analysis of the deposited data

How the results depend on the processing

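No member passed under any of the 19 alternatives, and the limma adjusted p of the 6 ranged from 0.564 to 1. The log2 fold changes of Id2 and Tcf3 kept their sign in all 19, between -0.93 and -0.10 for Id2 and between 0.23 and 0.53 for Tcf3. The sign turned for Id3 with a pseudocount of 0.1 (-0.10). When single libraries were left out, the fold change ran from -1.29 to 0.57 for Id1, from -0.44 to 1.33 for Id3, from -0.065 to 0.68 for Tcf4 and from -0.044 to 0.61 for Tcf12, and the difference in log2 Id to E protein ratio from -1.44 to 0.26. Without experiment 1 Id3 was at -0.11. Without experiment 2 Id3 was at -0.29, Tcf4 at -0.17 and Tcf12 at -0.19, and without experiment 3 Tcf12 was at -0.069. The cause was not tested.

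Over all genes 4 passed. The count was 0 without a filter, where an unadjusted p under 0.05 was met by 535 higher and 213 lower genes, and 0 without the trend (457 and 148). It was 1 with median-of-ratios scaling (297 and 355), with quantile normalization and with the robust prior. It was 0 to 16 with single libraries left out, and 15, 0 and 8 without experiments 1, 2 and 3. The replicate block gave 6 and changed no call among the members. Among experiments, 1 gene passed. The count was 2 with a pseudocount of 0.5, with a minimum mean of 5 TPM, with median-of-ratios scaling and with the robust prior, 0 without a filter or a trend (1041 and 848 at an unadjusted p under 0.05), and 0 to 37 with single libraries left out. Unknown depth limits what can be said of members under a few TPM, such as Id3 in db/db replicate 3.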
